A study of Mus musculus with 90 samples.

Results

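This report describes 39 genes for enzymes of amino acid breakdown in mouse liver. They were chosen by a fixed list of symbols, and each was represented by the RefSeq ID with the highest mean expression over the 54 RNA libraries, which mattered for the 8 genes with more than 1 ID. All 39 were found among the 24308 symbols of the expression table. They fall into 9 role groups, namely tyrosine (Tat, Hpd, Hgd, Fah), histidine (Hal, Uroc1, Amdhd1, Ftcd), serine and threonine (Sds, Sdsl, Tdh), transaminases, glutamine and glutamate (Got1, Got2, Gpt, Gpt2, Gls2, Glud1), proline and ornithine (Prodh, Prodh2, Aldh4a1, Oat), branched-chain amino acids (Bckdha, Bckdhb, Dbt, Ivd, Mccc1, Mccc2, Hibadh, Hibch, Aldh6a1, Pcca, Pccb), lysine (Aass, Gcdh), glycine and glyoxylate (Gldc, Amt, Agxt), and cysteine (Cdo1, Csad). Expression is given as RPKM, read counts corrected for the length of the transcript and the number of mapped reads, so that levels can be compared between genes.

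The liver breaks down amino acids that are not used for protein synthesis. Transaminases and dehydratases take off the nitrogen, which is passed on to the urea cycle, and the carbon skeletons feed gluconeogenesis, ketogenesis or the citric acid cycle. During fasting the pathway delivers carbon for glucose. Glucocorticoids and glucagon are known inducers of several of its genes and insulin opposes them, and Tat is a textbook target of the glucocorticoid receptor (GR).

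The study asked how a meal, glucocorticoid and insulin signals shape hepatic expression in mice trained to night-restricted feeding (NRF), with food only in the dark. The labels give the strain as C57BL/6, and the methods give C57BL/6N for the mice of the first 3 experiments and a C57BL/6J background for L-IRSdKO. RNA came from single mice in 5 experiments, at zeitgeber time (ZT) 10, before lights off, or at ZT14, after a meal offered at ZT12 (fed) or without it (unfed). The first experiment (wild-type males, 10 weeks old, ribosomal RNA depleted) held ZT10, ZT14-unfed and ZT14-fed groups of 2 mice. In the second (wild type, poly(A) RNA as in all later ones), groups of 4 mice at ZT14 received vehicle unfed, or vehicle, the glucocorticoid dexamethasone (dex, 1 mg/kg), the insulin receptor antagonist S961 (44 nM per mouse in the labels, but an amount in nmol per kg in the methods) or both agents and were fed. The third compared 4 unfed Nr3c1 fl/fl mice given AAV-CRE (L-GRKO) with 4 given AAV-GFP, where the Tbg promoter restricts Cre and GFP to hepatocytes and every mouse carries the floxed alleles and a virus. The fourth compared 4 Irs1 fl/fl, Irs2 fl/fl mice with Alb-Cre (L-IRSdKO) with 4 floxed mice without Cre, all fed and all injected with dex at 1 mg/kg, so no group of this experiment lacks dex. The fifth held 3 mice each of lean unfed, lean fed, obese unfed and obese fed groups, wild-type males, after 10 weeks of chow or high-fat diet (HFD) followed by NRF. Where replicates are single mice, p-values set a difference against the spread between mice within groups. That spread was estimated over all groups of an experiment, including groups outside the comparison.

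The targeted genes bore out the labels in part. Nr3c1, which encodes GR, was at 12.8 to 16.2 RPKM in AAV-GFP livers and 3.93 to 5.35 in L-GRKO livers. Irs1 was at 2.21 to 4.73 RPKM in floxed and 0.15 to 0.32 in L-IRSdKO livers, whereas Irs2 overlapped between the groups (0.61 to 5.61 and 0.27 to 1.00). The libraries of the L-IRSdKO experiment stood apart in scale. Their highest value for any ID was 674 to 914 RPKM, against 18853 to 60597 in the other 46 libraries, and the sum of 5 hepatocyte markers was 1881 to 2412 RPKM against 27838 to 73172, so abundant mRNAs cannot be compared with the other experiments there. Among the injected mice, replicate 4 of each group comes from another series of library numbers, and values within each series are given below for the genes that passed and are described per mouse. Relative depth within an experiment, read from the step that a single read makes in the values, ran down to 0.48 of the deepest library. This estimate puts lean unfed replicate 3 deepest in the diet experiment (1.00), whereas the read numbers listed in the study's supplement put it lowest there. In bulk liver, fewer cells of a type and less RNA per cell cannot be told apart.

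Of the 39 enzymes, 38 were expressed above a mean of 0.5 RPKM in every experiment and were tested. Tdh, the threonine dehydrogenase gene, reached at most 0.017 RPKM and was tested nowhere. On the RPKM scale, the highest means over all libraries belonged to Hpd (1183 RPKM), which acts next after Tat in tyrosine breakdown, Tat itself, the cysteine dioxygenase gene Cdo1 (612 RPKM) and the ornithine aminotransferase gene Oat (387 RPKM). The lowest means among the tested genes were those of Sdsl (10.7 RPKM) and Amt (11.0 RPKM). Differences are reported as log2 fold changes of RPKM + 0.5 from limma's linear model, and a gene is said to rise or fall only where its Benjamini-Hochberg (BH) adjusted p over all tested genes was under 0.05, or under 0.01 in the first experiment.

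Over 15 comparisons, 20 of the 39 genes passed the test at least once, in 55 gene and comparison pairs, of which 29 were rises and 26 falls. Such totals were not made over all genes, so they and the counts per role group have no background here. Shares of all genes are given below for each comparison. Tat, which encodes tyrosine aminotransferase, the rate-limiting enzyme of tyrosine breakdown, accounted for 9 of the pairs. The cytosolic aspartate aminotransferase gene Got1 accounted for 8, the serine dehydratase gene Sds for 6, and its neighbour and paralog Sdsl for 4. The remaining 16 genes passed in 1 to 3 comparisons each. The branched-chain group, which breaks down leucine, isoleucine and valine, had the lowest share of called genes, 2 of 11 (Bckdhb and Mccc2) in 3 pairs. The tyrosine enzymes downstream of Tat passed in none. For the 18 tested genes without a call, the 270 log2 fold changes lay between -0.42 and 0.47, and 92.6% of them were within 0.25 of 0. The direction of each of the 55 pairs was the same under every scaling, filter and left-out library tried, which is a weak check for pairs picked because they passed. Only 15 of the 55 kept their call under every setting and with every library left out.

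**Figure D1:**
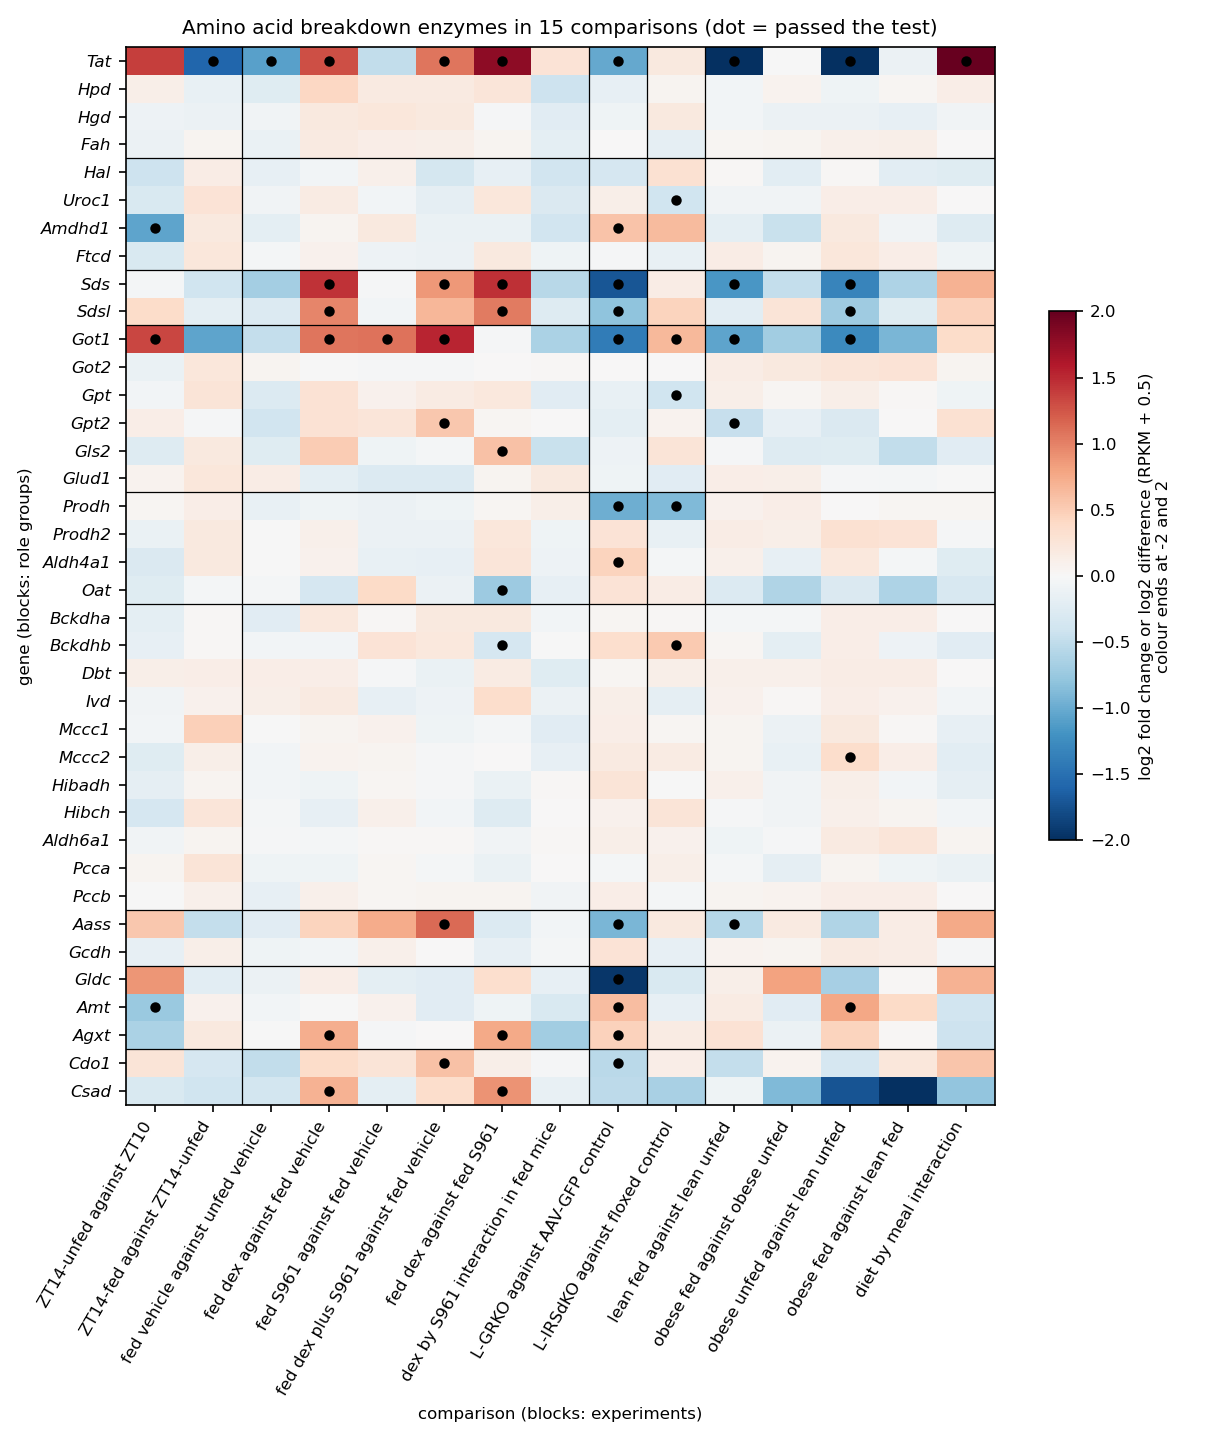
Log2 fold changes (colour, RPKM + 0.5, ends at -2 and 2) of the 38 tested genes (rows, blocked by role) in the 15 comparisons (columns, blocked by experiment), with interaction columns as log2 differences. Dots mark the 55 pairs that passed the test, 27 of them in the rows of Tat, Sds, Sdsl and Got1.

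Peaks of GR and of the forkhead factor FOXO1, which insulin signalling keeps out of the nucleus, were called by the authors in pooled livers of unfed mice at ZT14 and are given as positions in mm9 without heights. Of the 39 genes, 34 had a peak of either factor no further than 50 kb from the transcription start site (TSS), or 87.2%, beside 61.7% of 10314 genes averaging 0.5 RPKM or more and 73.8% of 3791 genes with at least 10 RPKM. Within 20 kb it was 31 genes (79.5%, beside 42.7% and 57.3%). For GR alone the count was 33 genes (84.6%, beside 47.9% and 61.0%) and for FOXO1 alone 32 (82.1%, beside 50.6% and 62.6%). The genes carried 2.9 GR peaks on average and at most 7, which was the number near Hpd, Sds, Sdsl, Glud1 and Gldc. No peak of either factor lay within 50 kb of Tdh, Prodh2, Dbt, Ivd or Gcdh. Pccb had a FOXO1 peak only, and Bckdha and Mccc1 had a GR peak only. The 10 genes that rose with dex or fell in L-GRKO livers had 2 to 7 GR peaks each, with a median of 5, and the other 29 had 0 to 7, with a median of 2. The 10 were chosen by their RNA, so these medians are a description without a test, and Sds and Sdsl lie next to each other and share all 7 GR and 4 FOXO1 peaks.

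**Figure D2:**
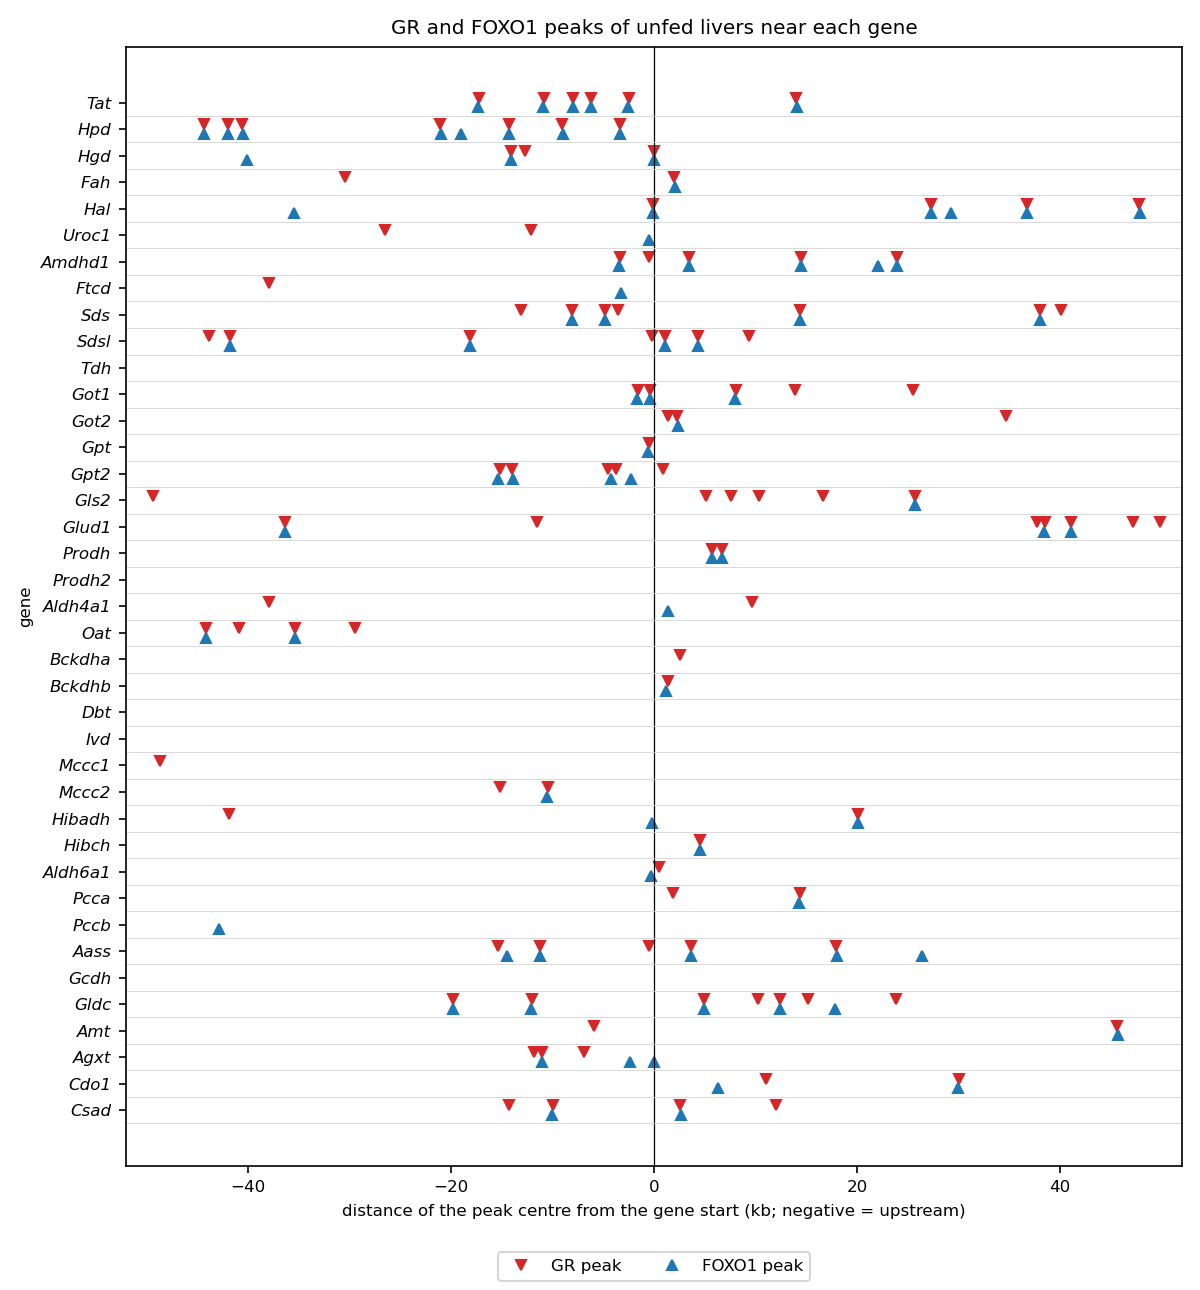
Distance (kb) of each GR peak centre (red) and FOXO1 peak centre (blue) from the TSS of each of the 39 genes, negative values lying upstream. Rows of Hpd, Sds, Sdsl, Glud1 and Gldc hold 7 GR peaks each and those of Tdh, Prodh2, Dbt, Ivd and Gcdh none, and in many rows red and blue symbols coincide.

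The 39 genes drew on 103 distinct GR peaks and 75 FOXO1 peaks, and 53.4% of the former overlapped a FOXO1 peak, beside 48.8% of all GR peaks. The converse share, FOXO1 peaks lying over GR, was 73.3%, beside 59.7% in the whole list. The palindrome ACANNNTGT, bound by GR, was present in the central 168 bases of 22.3% of these GR peaks, beside 19.8% of all 10446 GR peaks and 5.99% of all 83592 DNase hypersensitive sites (DHSs). The forkhead sequence TGTTTAC, searched on both strands (GTAAACA on the other), was present in 14.7% of the 75 FOXO1 peaks, beside 18.2% of all 8546 and 4.36% of DHSs. For genes that fell in L-GRKO livers, the GR peak with a palindrome nearest to the TSS is printed here, so that the bound sequence can be read beside the RNA result, and Sds and Sdsl share theirs. The one of Cdo1, in an intron 11010 bp past the TSS, is not printed, and Gldc had none. They were picked after the RNA values were known. All are on the plus strand of mm9, 5′ to 3′, with the motif letters in capitals.
Tat, intergenic, 14018 bp downstream of the TSS (chr8:112528266-112528445): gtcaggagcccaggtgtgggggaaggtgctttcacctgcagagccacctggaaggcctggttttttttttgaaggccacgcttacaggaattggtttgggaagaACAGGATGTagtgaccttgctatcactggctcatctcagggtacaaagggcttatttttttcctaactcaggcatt
Got1, 364 bp upstream of the TSS (chr19:43599370-43599549): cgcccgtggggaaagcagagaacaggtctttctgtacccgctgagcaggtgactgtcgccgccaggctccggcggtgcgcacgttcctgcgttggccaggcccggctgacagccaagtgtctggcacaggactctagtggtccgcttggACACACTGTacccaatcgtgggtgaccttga
Sdsl, in an intron, 4388 bp downstream of its TSS and 8109 bp upstream of that of Sds (chr5:120918342-120918521): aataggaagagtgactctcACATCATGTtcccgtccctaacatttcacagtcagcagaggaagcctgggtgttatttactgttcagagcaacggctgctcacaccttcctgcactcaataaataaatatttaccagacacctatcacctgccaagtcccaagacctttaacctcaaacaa
Prodh, in an intron, 6685 bp past the TSS (chr16:18083522-18083701): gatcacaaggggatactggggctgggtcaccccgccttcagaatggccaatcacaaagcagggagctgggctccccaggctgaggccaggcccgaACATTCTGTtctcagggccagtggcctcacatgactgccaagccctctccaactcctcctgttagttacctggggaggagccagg
Aass, over an exon, 17950 bp past the TSS (chr6:23064947-23065126): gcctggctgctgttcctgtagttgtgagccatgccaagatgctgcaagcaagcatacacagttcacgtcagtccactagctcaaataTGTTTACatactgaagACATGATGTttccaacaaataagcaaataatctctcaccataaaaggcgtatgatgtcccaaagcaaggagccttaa
The 5 printed peaks overlapped a FOXO1 peak, and the Cdo1 peak that is not printed did not. The Aass peak is the one of the 5 that holds a forkhead match beside the palindrome, and it is also the one that lies in a DHS. The 7 GR peaks near Gldc held neither motif in these windows, which says nothing about GR there.

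Across the day without food, from ZT10 to ZT14-unfed, 1 gene rose and 2 fell of the 38 tested, beside 0.376% and 0.789% of the 10904 genes tested. Got1 stood at 81.4 and 70.8 RPKM in the ZT10 mice and at 161.2 and 228.9 in the ZT14-unfed mice, and rose by 1.33 (SE 0.16, BH-adjusted p = 0.0078 by limma). Amdhd1, which encodes the imidazolonepropionase of histidine breakdown, was at 78.7 and 65.8 RPKM and then at 35.4 and 33.7, a log2 fold change of -1.05 (SE 0.11, BH-adjusted p = 0.0055 by limma). Amt, the aminomethyltransferase of the glycine cleavage system, was at 17.7 and 17.4 and then at 10.4 and 10.1 RPKM, a log2 fold change of -0.75 (SE 0.09, BH-adjusted p = 0.0076 by limma). The mice of the groups did not overlap for these genes. Tat was higher at ZT14-unfed in both mice (600.5 and 374.7 against 1203.7 and 1274.3 RPKM), but with an adjusted p of 0.011 from limma it missed the threshold of 0.01. Leaving out a library gave between 0 and 2 calls in place of 3.

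After the meal, Tat alone fell among the enzymes, and none rose, beside 0.422% of genes that fell and 0.569% that rose. It stood at 410.7 and 409.0 RPKM in the ZT14-fed mice, about a 3.02-fold decrease from ZT14-unfed (log2 fold change -1.59, BH-adjusted p = 0.0084 by limma). Over all genes, the median log2 fold change of this comparison was 0.12, and with the libraries scaled to a common median ratio the value for Tat was -1.73. Got1 was lower in both fed mice (93.3 and 91.8 RPKM) with a log2 fold change of -1.05 and an adjusted p of 0.016 from limma, short of the threshold. Sds was at 107.4 and 107.0 RPKM in fed and 139.5 and 144.5 in unfed mice (log2 fold change -0.40, BH-adjusted p = 0.13 by limma). The call of Tat was lost without either ZT14-fed mouse or either ZT14-unfed mouse, where its log2 fold change stayed between -1.73 and -1.45 over all alternatives. The summed level of 6 periportal hepatocyte markers was 1778 to 1879 RPKM in fed and 2790 to 2990 in unfed mice. Only 1 of the 6 markers was called lower and none higher, and their median log2 fold change was -0.04. The lower sum therefore does not describe the list as a whole. Pck1, a marker on this list, is reported by the study as lowered by feeding. The part of this sum in these differences was not tested.

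**Figure D3:**
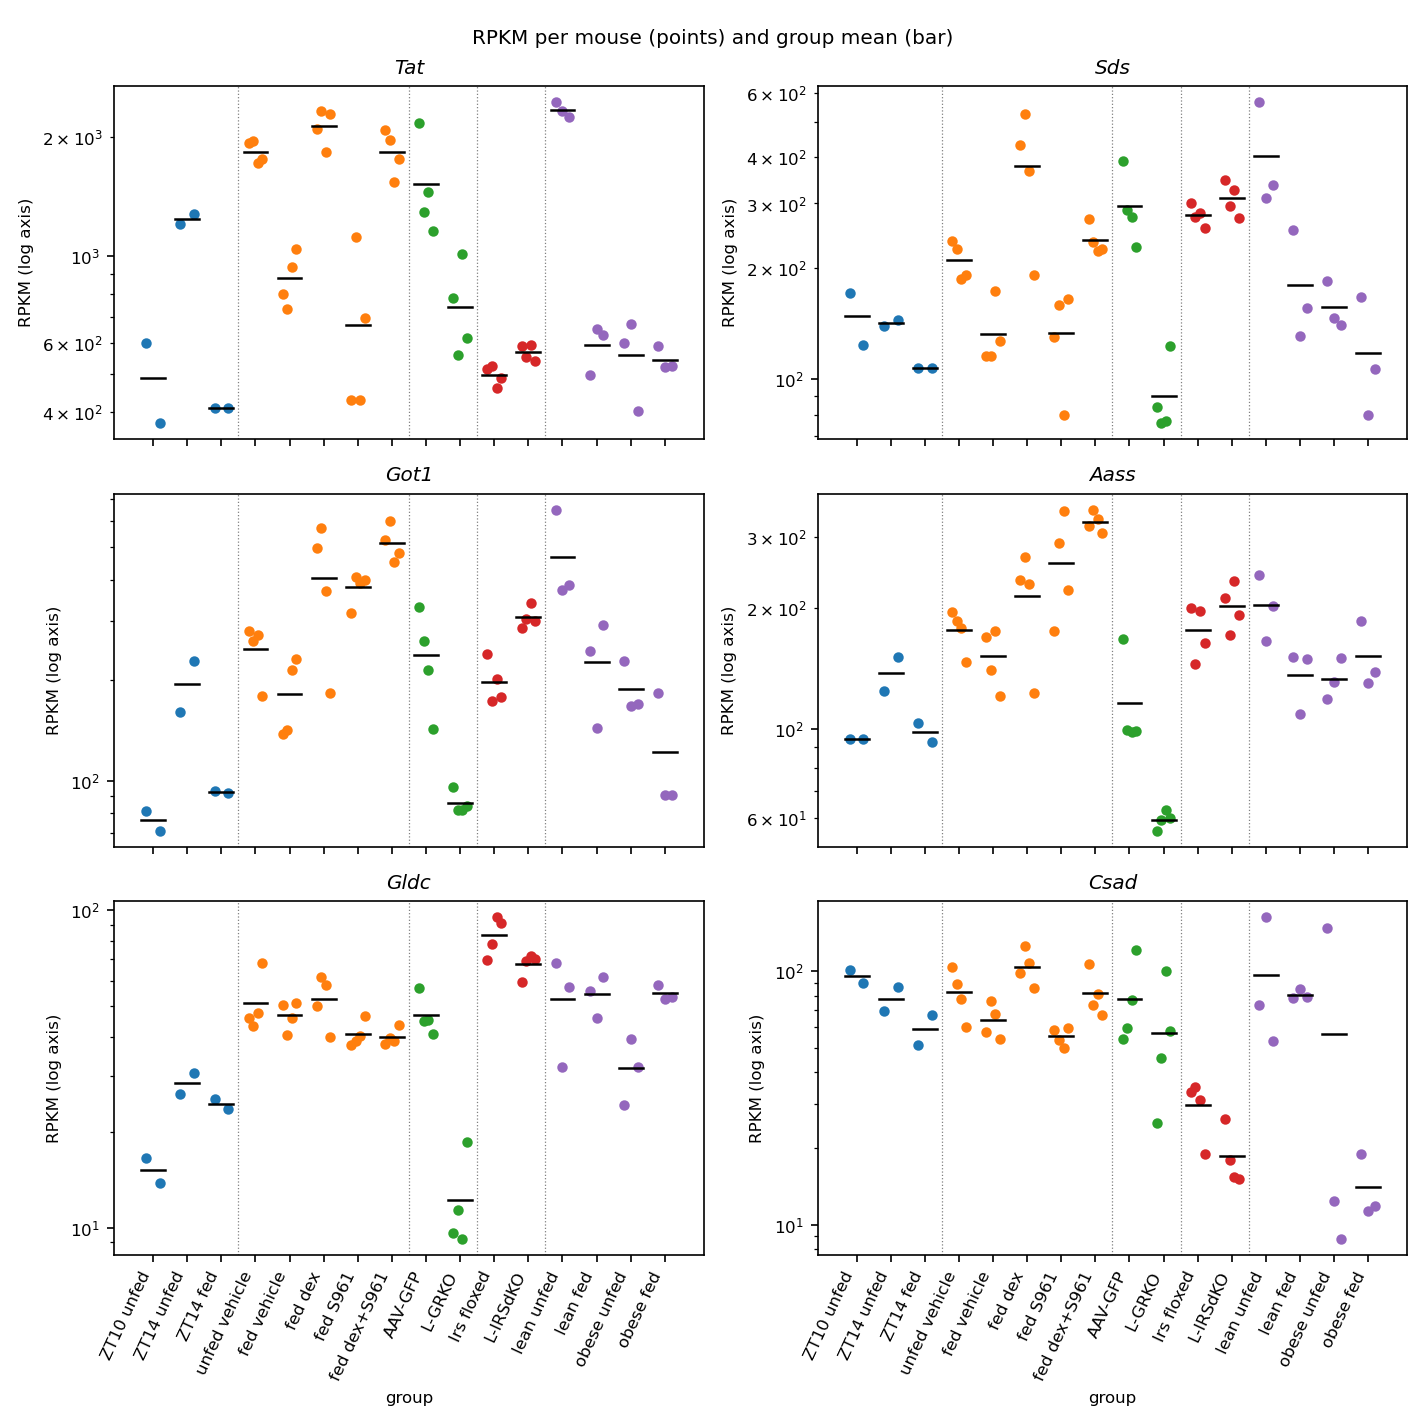
RPKM per mouse (points, log axis) and group mean (bars) of 6 genes in the 16 groups, with dotted lines between experiments, whose scales are not comparable. Within experiments, Tat is high in ZT14 unfed mice on chow and after dex in the injected mice, Gldc is low in L-GRKO, and Csad is low on HFD except in a single obese unfed mouse.

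The meal was repeated in vehicle-injected mice, where again Tat alone fell and none rose, beside 0.578% and 2.55% of 11248 genes. Tat was at 1929.0, 1950.5, 1720.3 and 1754.6 RPKM in unfed and at 796.4, 729.9, 932.9 and 1040.4 in fed mice. The groups were apart, and the log2 fold change was -1.08 (SE 0.22, BH-adjusted p = 0.014 by limma). Across the enzymes 34 of 38 log2 fold changes lay below 0, with a median of -0.08 beside 0.10 over all genes. The other meals did not repeat this, with 12 of 38 below 0 in the first experiment, 18 in lean and 22 in obese mice. The share of all genes below 0 was not counted. Sds (-0.68), Cdo1 (-0.50) and Got1 (-0.47) had the next lowest values, and none of these passed. Within replicates 1 to 3 the log2 fold change of Tat was -1.19 and between the replicate 4 libraries -0.75, whereas Got1 had -0.75 and 0.37. Without fed vehicle replicate 2 or unfed vehicle replicate 2, Tat no longer passed.

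Dex given before the meal raised 6 enzymes and lowered none, beside 1.00% of genes raised and 2.19% lowered. Tat stood at 2095.6, 2331.1, 1829.8 and 2285.0 RPKM in the fed dex mice, above each fed vehicle mouse, and rose by 1.29 (SE 0.22, BH-adjusted p = 0.003 by limma). Sds was at 115.6, 115.4, 173.3 and 126.6 RPKM with vehicle and at 432.8, 525.0, 367.8 and 191.5 with dex, a rise of 1.44 (SE 0.25, BH-adjusted p = 0.0035 by limma). The groups did not overlap for either gene, though dex replicate 4 was the lowest for Sds. The paralog Sdsl rose from a mean of 5.35 ± 1.56 RPKM (SD, n = 4) to 10.9 ± 1.93, by 0.98 on the log2 scale.

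Got1 was at 138.5, 141.9, 215.2 and 231.2 RPKM in fed vehicle and at 498.3, 569.6, 369.2 and 183.4 in fed dex mice. Dex replicates 1 to 3 were above every vehicle mouse and replicate 4 was among the vehicle mice, so the groups overlapped although the gene passed (log2 fold change 1.07, SE 0.26, BH-adjusted p = 0.03 by limma). Agxt, the alanine-glyoxylate aminotransferase gene, showed the same picture, with 127.0, 129.3, 99.6 and 70.0 RPKM under dex against 49.2 to 70.9 with vehicle (log2 fold change 0.73, BH-adjusted p = 0.042 by limma). Csad, which encodes the decarboxylase on the way from cysteine to taurine, was at 98.7, 125.2, 107.5 and 85.9 RPKM under dex and 54.0 to 76.1 with vehicle, without overlap (log2 fold change 0.70, BH-adjusted p = 0.026 by limma).

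The library series mattered for several of these genes. Within replicates 1 to 3 the log2 fold change with dex was 1.35 for Tat, 1.72 for Sds, 1.24 for Sdsl, 1.54 for Got1, 0.98 for Agxt and 0.72 for Csad. Between the pair of replicate 4 libraries it was 1.13 for Tat, 0.66 for Csad and 0.60 for Sds, but 0.23 for Sdsl, -0.02 for Agxt and -0.33 for Got1. A single pair carries no error, so whether the series differ was not tested. The count of 6 went down to 2 without fed dex replicate 1, 2 or 3 or without fed vehicle replicate 1, and to 3 without fed vehicle replicate 2. The call of Tat held with every library left out. The sum of 5 Kupffer cell markers was 56.7 to 82.5 RPKM in fed vehicle mice and 33.8 to 60.3 with dex, and its part in the result was not tested.

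S961 alone raised Got1 and lowered none of the enzymes, beside 0.933% of genes raised and 0.960% lowered. Got1 was at 318.8, 408.3, 390.8 and 400.4 RPKM with S961, above every fed vehicle mouse (log2 fold change 1.09, SE 0.26, BH-adjusted p = 0.039 by limma). The lysine enzyme gene Aass, whose product joins lysine to alpha-ketoglutarate, had 174.9, 289.9, 347.5 and 221.5 RPKM with S961 and 120.7 to 175.7 with vehicle. The groups just overlapped and the adjusted p was 0.095 (log2 fold change 0.74, limma). Tat ran the other way without passing, at 429.6, 1113.9, 428.8 and 695.4 RPKM (log2 fold change -0.50, BH-adjusted p = 0.32 by limma). Within replicates 1 to 3 the log2 fold change of Got1 was 1.19 and between the replicate 4 libraries 0.79. The call of Got1 was lost without any single one of 10 libraries, among them fed vehicle replicates 1 to 3 and S961 replicates 2 to 4.

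With dex and S961 together, 6 enzymes rose and none fell, beside 2.69% and 7.90% of genes. Got1 was at 525.3, 597.8, 452.9 and 479.8 RPKM, the highest group mean of Got1 in this experiment (log2 fold change 1.53, SE 0.26, BH-adjusted p = 0.0013 by limma). Aass reached 319.6, 351.0, 332.6 and 308.0 RPKM and rose by 1.13 (SE 0.22, BH-adjusted p = 0.0028 by limma). Tat was at 2080.7, 1962.9, 1534.8 and 1759.7 RPKM and rose by 1.07 (BH-adjusted p = 0.0046 by limma). For each of these genes the 4 mice lay above all 4 fed vehicle mice. The other rises were those of Sds (0.86), Cdo1 (0.59), which turns cysteine into its sulfinate, and Gpt2 (0.54), the mitochondrial alanine aminotransferase gene. In replicates 1 to 3 and in replicate 4 the values were 1.69 and 1.05 for Got1, 1.05 and 1.35 for Aass, 1.18 and 0.76 for Tat, 0.87 and 0.83 for Sds, 0.48 and 0.90 for Cdo1, and 0.56 and 0.49 for Gpt2. Because the median over all genes was -0.14 here, the values with median-ratio scaling were higher, at 1.68 for Got1, 1.28 for Aass, 1.23 for Tat, 1.02 for Sds, 0.74 for Cdo1 and 0.69 for Gpt2.

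Dex and S961 were also set against each other. Relative to fed S961, fed dex livers had 6 enzymes higher and 2 lower, beside 2.83% and 4.62% of genes. The higher ones were Tat (log2 fold change 1.79, SE 0.22, BH-adjusted p = 4.64e-05 by limma), Sds (1.46), Sdsl (1.04), Csad (0.90), Agxt (0.76) and the liver glutaminase gene Gls2 (0.59). The lower ones were Oat (-0.72), which moves the amino group of ornithine, and Bckdhb (-0.33), a subunit of the branched-chain ketoacid dehydrogenase. In replicates 1 to 3 and in replicate 4 the differences were 1.81 and 1.72 for Tat, 1.88 and 0.21 for Sds, 1.33 and 0.20 for Sdsl, 1.03 and 0.52 for Csad, and 1.07 and -0.19 for Agxt. For Got1 the difference was -0.02 with an SE of 0.26 and overlapping groups, made up of 0.35 in replicates 1 to 3 and -1.12 in replicate 4. The interaction of dex and S961 was called for 0 of the 38 enzymes, beside 0% higher and 0% lower of 11248 genes by limma, with an unadjusted p under 0.05 for 3 enzymes and for 513 genes. The vehicle, dex and S961 comparisons of this experiment share fed vehicle mice.

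**Figure D4:**
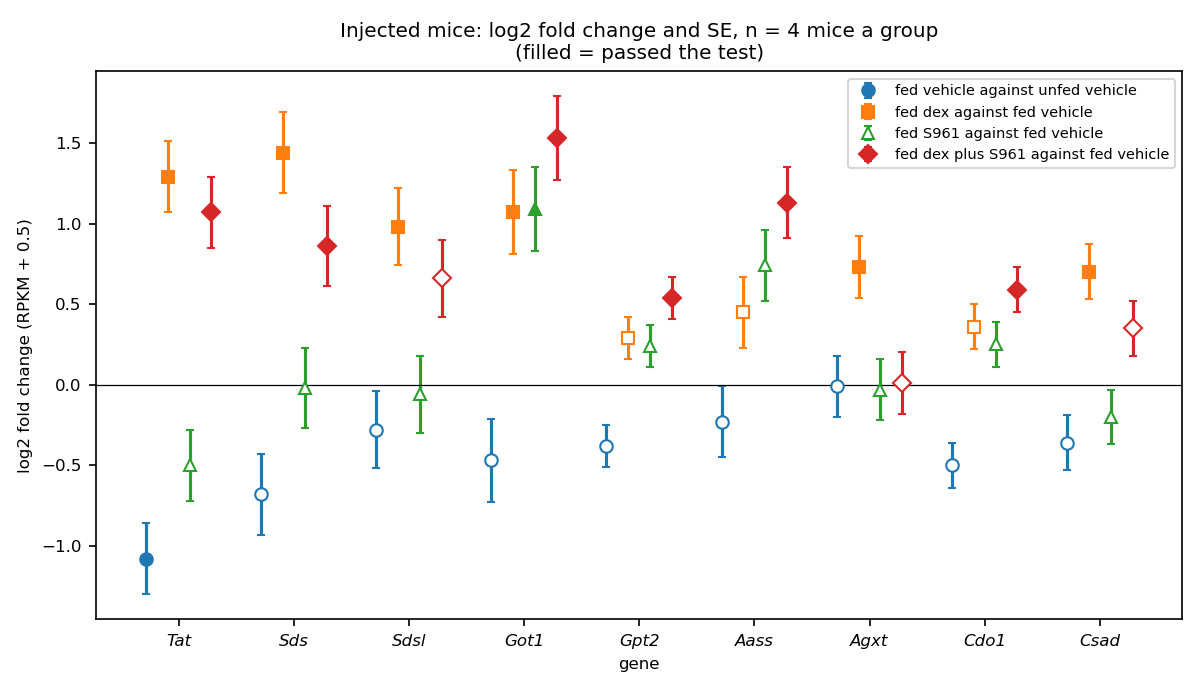
Log2 fold changes with their SE (n = 4 mice a group) of the 9 enzymes called in any of 4 comparisons of the injected mice, with filled symbols for those that passed. Tat, Sds, Sdsl, Agxt and Csad have their highest values with dex alone, and Got1, Aass, Gpt2 and Cdo1 with dex plus S961.

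Loss of hepatocyte GR gave the largest number of calls among the 15 comparisons, with 8 lower and 4 higher of 38 in unfed L-GRKO livers, beside 2.22% lower and 4.46% higher of 11646 genes. The lower genes came from 7 of the 9 role groups. Gldc, the glycine decarboxylase of the glycine cleavage system, changed most, from 56.9, 44.9, 45.1 and 40.7 RPKM in AAV-GFP to 9.61, 11.4, 9.25 and 18.7 in L-GRKO livers. All L-GRKO mice were below all controls, and the log2 fold change was -1.94 (SE 0.20, BH-adjusted p = 4.59e-04 by limma). Sds followed with 391.6, 287.7, 275.2 and 227.9 against 84.1, 75.9, 77.0 and 123.3 RPKM, a log2 fold change of -1.71 (SE 0.19, BH-adjusted p = 5.60e-04 by limma).

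Got1 was at 331.6, 261.8, 215.1 and 142.7 RPKM in controls and at 95.8, 81.8, 81.8 and 84.2 in L-GRKO livers, a log2 fold change of -1.40 (SE 0.21, BH-adjusted p = 0.0036 by limma). The knockout values lay close together and below the controls, whose range was wide. Tat fell from 2176.1, 1286.7, 1447.7 and 1156.4 to 778.6, 558.6, 1010.6 and 617.5 RPKM (log2 fold change -1.03, SE 0.22, BH-adjusted p = 0.022 by limma). Prodh, the proline dehydrogenase gene, was at 93.9, 72.4, 75.1 and 68.2 RPKM in controls and at 38.4, 37.2, 39.9 and 38.8 without GR (log2 fold change -0.98, SE 0.10, BH-adjusted p = 5.08e-04 by limma). The groups were apart for both genes. Aass fell by 0.92 on the log2 scale, from 98.4 to 167.8 RPKM over the controls to 55.8 to 62.8, Sdsl changed by -0.80 and Cdo1 by -0.54.

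The genes that were higher in L-GRKO livers were Amt (0.61), Amdhd1 (0.57), Agxt (0.46) and Aldh4a1 (0.44), the last of which completes proline breakdown downstream of Prodh. Amt was at 7.08, 8.11, 7.89 and 8.56 RPKM in controls and at 10.7, 14.3, 12.3 and 12.3 in knockouts. Amdhd1 was at 32.7 to 39.6 RPKM in controls and 43.4 to 64.5 in knockouts, and Agxt at 67.7 to 93.9 and 98.2 to 110.2. For all 4 genes the knockout mice lay above the controls. With median-ratio scaling Amt still passed (0.52, BH-adjusted p = 0.022 by limma), whereas Amdhd1 (0.47), Agxt (0.36) and Aldh4a1 (0.34) did not, with limma's BH-adjusted p at 0.056, 0.09 and 0.1. The call of Agxt was lost under 6 of 10 other settings and without any one of 7 of the 8 libraries. Gldc and Amt, which both act in the glycine cleavage system, thus moved apart, Gldc down and Amt up. The response also divided the genes by their dex response, which was measured in other mice. Of the 6 genes raised by dex, 4 (Tat, Sds, Sdsl and Got1) fell in L-GRKO livers, Agxt was called higher in both, a call that was lost without any one of 12 of the 20 libraries for dex and of 7 of the 8 here, and Csad had a log2 fold change of -0.53 with overlapping groups. How many of all genes rose with dex and fell in L-GRKO livers was not counted, so this overlap has no background here. Gldc, the gene that fell most, had a log2 fold change of 0.14 with dex and did not pass.

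Without a single library, between 8 and 12 enzymes were called in L-GRKO livers. The falls of Gldc, Sds and Prodh held in every such fit and under every other setting. Tat no longer passed without AAV-GFP replicate 2 or L-GRKO replicate 2 (limma BH-adjusted p up to 0.19 over all alternatives). The periportal marker sum was 3424 to 4556 RPKM in L-GRKO and 5515 to 6461 in control livers, with 3 of its 6 markers lower, and its part in these differences was not tested. Nr3c1 itself was lowered and not absent there (log2 fold change -1.58).

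In the fed, dex-injected livers labelled L-IRSdKO, where the loss of Irs2 RNA did not pass the test, 2 enzymes were higher and 3 lower, beside 9.04% and 8.32% of 12963 genes. The 2 and 3 are 5.26% and 7.89% of the 38 enzymes, and so not above that background. Got1 was at 239.8, 173.0, 202.3 and 177.7 RPKM in floxed and 287.2, 305.2, 341.5 and 301.1 in L-IRSdKO livers, a rise of 0.65 (SE 0.11, BH-adjusted p = 0.0064 by limma). Bckdhb rose from a mean of 67.0 to 97.2 RPKM (log2 fold change 0.53, SE 0.06, BH-adjusted p = 0.002 by limma). Both kept their call with any library left out. Prodh fell from 141.6, 105.4, 135.6 and 152.5 RPKM to 104.7, 62.5, 60.9 and 66.8, a log2 fold change of -0.88 (SE 0.18, BH-adjusted p = 0.014 by limma), and the groups were just apart. The urocanase gene Uroc1 and the cytosolic alanine aminotransferase gene Gpt both changed by -0.40. Tat was at 460.8 to 524.6 RPKM in floxed and 538.4 to 593.8 in knockout livers (log2 fold change 0.19, BH-adjusted p = 0.051 by limma), in the experiment with the low ceiling of values. Without L-IRSdKO replicate 1, 10 enzymes passed, and without replicate 2, 3 or 4 of that group 3 did. Cholangiocyte markers summed to 7.87 to 13.9 RPKM in knockout and 19.7 to 46.2 in floxed livers and Kupffer markers to 214 to 280 and 125 to 227, and their part in the result was not tested.

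In the diet experiment, the meal lowered 5 enzymes in lean mice and raised none, beside 7.28% of 11431 genes lowered and 16.1% raised. Tat went from 2455.5, 2328.0 and 2252.8 RPKM in lean unfed mice to 496.9, 649.0 and 627.0 in lean fed mice, a log2 fold change of -2.0 (SE 0.17, BH-adjusted p = 1.44e-04 by limma). Sds went from 565.5, 309.5 and 336.7 to 254.3, 131.2 and 156.3 RPKM (-1.16, BH-adjusted p = 0.022 by limma) and Got1 from 648.2, 373.5 and 386.3 to 245.5, 144.2 and 292.3 (-1.06, BH-adjusted p = 0.04 by limma). For all of these the lean fed mice lay below the lean unfed mice, Tat by the widest margin. Aass (-0.57) and Gpt2 (-0.46) also fell, the latter with overlapping groups. The count was 1, Tat, without lean unfed replicate 1 or lean fed replicate 2, and 2 without lean fed replicate 3.

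In obese mice, the meal was followed by no call among the enzymes, beside 5.17% of genes higher and 2.48% lower, with an unadjusted limma p under 0.05 for 5 enzymes and 2878 genes. The methods do not name the food of this meal for obese mice, so the diet before it and its composition cannot be told apart. Tat was already low in the obese unfed mice, at 599.0, 670.2 and 403.0 RPKM, and was at 588.6, 520.0 and 522.5 after the meal, a difference of -0.01 (SE 0.17). The change of Tat with the meal therefore differed between the diets by 1.99 (SE 0.24, BH-adjusted p = 0.0076 by limma for the interaction). Tat was the 1 enzyme called for this interaction, in the higher direction, beside 0.420% of genes higher and 0.324% lower. Sds (0.70), Aass (0.75) and Gldc (0.69) had interaction values of the same sign and did not pass. Of the 38 interaction values 17 lay above 0 and 21 below, the lowest being that of Csad (-0.79), which did not pass either. Gldc went from 24.4, 39.3 and 32.0 RPKM in obese unfed to 58.3, 52.6 and 53.5 in obese fed mice, apart but with an adjusted p of 0.072 from limma.

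Before the meal, obese livers had 4 enzymes lower and 2 higher than lean livers, beside 1.70% and 3.53% of genes. The lower ones were Tat (log2 fold change -2.10, SE 0.17, BH-adjusted p = 4.66e-04 by limma), Sds (-1.32), Got1 (-1.28) and Sdsl (-0.71). Sds was at 184.4, 146.3 and 140.6 RPKM in obese unfed mice, Got1 at 228.9, 167.2 and 170.4, and Sdsl at 5.93, 4.09 and 5.02. All were below the lean unfed mice, and for Got1 the adjusted p was 0.05 by limma after rounding and its call was lost without any single one of 9 of the 12 libraries. The higher ones were Amt, at 19.9, 24.4 and 17.4 RPKM against 11.8, 11.4 and 11.8 (0.78, SE 0.11, BH-adjusted p = 0.0043 by limma), and the leucine pathway gene Mccc2 (0.35). The 4 lower genes were the 4 that rose with dex and fell in L-GRKO livers, which were measured in other mice. How many of all genes share these calls was not counted, so the overlap has no background here. Sds and Sdsl are also neighbours and paralogs. The lean unfed mice serve in this comparison and in that of the meal in lean mice. Without obese unfed replicate 2 or 3, or lean unfed replicate 1 or 3, 2 enzymes were called, and without lean unfed replicate 2 or lean fed replicate 3, 3 were. Tat passed in each of these fits. The periportal marker sum was 2976 to 4207 RPKM in obese and 5099 to 6084 in lean unfed mice, with 1 of 6 markers lower. The endothelial sum was 30.9 to 39.3 and 54.3 to 65.6, with 4 of 5 markers lower. Median log2 fold changes of these lists were -0.31 and -0.54. Pck1, a periportal marker here, is reported by the study as lower in unfed obese mice. The part of these sums in the result was not tested.

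After the meal, no enzyme passed between obese and lean mice, beside 0.297% of genes higher and 0.210% lower, with an unadjusted limma p under 0.05 for 7 enzymes and 2283 genes. The largest fitted difference of any enzyme in the 15 comparisons was nevertheless found here. Csad was at 78.4, 85.0 and 79.3 RPKM in lean fed and at 19.1, 11.3 and 11.9 in obese fed mice, a log2 fold change of -2.52 (SE 0.82, BH-adjusted p = 0.14 by limma). Obese unfed mice had 148.4, 12.4 and 8.82 RPKM and lean unfed mice 73.7, 163.0 and 53.0, so replicate 1 of the obese unfed group stood far above the other mice on HFD. Without this library the same log2 fold change had an SE of 0.35 and an adjusted p of 0.0057 from limma, and with only the compared groups fitted the SE was 0.18 and the adjusted p 0.0027. For unfed mice, the log2 fold change of Csad was -1.73 (BH-adjusted p = 0.24 by limma) with this library and -2.98 (BH-adjusted p = 0.0029 by limma) without it.

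Other genes of amino acid breakdown were counted from a list of 40, of which 38 were tested. None passed with dex, 0 after the meal in the first experiment and 1 up and 2 down after it in vehicle-injected mice, beside 2.55% and 0.578% of all genes. Ppm1k, which encodes the phosphatase that activates the branched-chain ketoacid dehydrogenase, was lower after the meal in vehicle-injected (-0.76), lean (-1.37) and obese mice (-1.0) and higher with S961 (0.82), in L-GRKO (0.80) and in L-IRSdKO livers (0.77). The hydroxylysine kinase gene Hykk was lower after the meal in vehicle-injected (-0.60) and lean mice (-1.17) and higher with S961 (0.65). In L-GRKO livers 5 of the 38 were higher, beside 4.46% of all genes, among them Ppm1k and the succinate semialdehyde dehydrogenase gene Aldh5a1 (0.52). In L-IRSdKO livers 4 were higher and 10 lower, beside 9.04% and 8.32% of all genes, and after the meal in lean mice 5 and 3, beside 16.1% and 7.28%. Bcat2, the branched-chain aminotransferase gene, rose after the meal in lean mice (0.84) and was higher in obese than lean unfed mice (0.80), and its interaction of diet and meal was -0.84. Klf15, a transcription factor gene known for its role in amino acid breakdown, fell after the meal in all 3 experiments with wild-type mice on chow (-0.80, -0.67 and -0.89), rose with dex (0.84) and fell in L-GRKO livers (-0.48).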

How the data were processed

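RNA was measured in 54 libraries of single mice. The authors deposited RPKM values on 35707 RefSeq IDs, the unit used here. The submitters' processing notes name mm9 and STAR, which the methods state for ChIP-seq and DNase-seq. The GR, FOXO1 and DHS lists are HOMER peaks deposited as positions. The RPKM values carry no counts, so depth was estimated from them, relative to other libraries. The read numbers that the study's supplement lists were not used, and they differ from this estimate in places. Values near 0.5 RPKM rest on few reads in the shallowest libraries. The strand counted is not given in the sources used here, and 31.1% of the Sds exon bases overlap Gm15690 and Plbd2 on the opposite strand.

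IDs were named from RefSeq (35402 of 35707). Values as log2(RPKM + 0.5) went into a separate limma fit (3.58.1, R 4.3.3) for each of 5 experiments, with a variance trend and BH adjustment over genes averaging 0.5 RPKM or more. The scripts were tested on simulated data. Peaks were joined to TSSs of the GENCODE mm9 annotation within 50 kb with Python 3.11.15, numpy 2.4.6 and pandas 2.3.3, and motifs were searched in the genome sequence of that build. Figures used matplotlib 3.10.9.

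The members, gene lists and tests were chosen with earlier results of these data known. Values per mouse are given for the 12 members called most often and for the member with the largest change in each comparison, and the 2 largest changes per direction of the other pathway genes could be named. A comparison of peaks with genes of at least 10 RPKM was chosen after seeing the data. H3K27Ac and DNase signal were not used here, and 0 value columns of the expression table were left unused.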

Additional observations from a re-analysis of the deposited data

Results flagged for a closer look

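In groups of 4 mice, a library was marked where its gap to the nearest other mouse took up most of the range of the group (Dixon's test at 95%). Of 117 such groups of the members described per mouse, 6 were marked, and chance marks about 1 in 20. Aass was at 168 RPKM in AAV-GFP replicate 1 and at 98.4 to 99.3 in the other controls. Agxt was at 93.9 RPKM in AAV-GFP replicate 3 and at 67.7 to 71.2 in the others. Prodh was at 105 RPKM in L-IRSdKO replicate 1 and at 60.9 to 66.8 in the others. Among the injected mice all 3 marks fell on replicate 4, with Gldc at 68.2 RPKM and Gpt2 at 183 in unfed vehicle (43.2 to 47.5 and 224 to 228 in the others) and Amt at 9.49 RPKM with S961 (8.26 to 8.36 in the others). The effect of the meal on Tat differed between lean and obese mice by 1.99 on the log2 scale in a test of the interaction.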

How the results depend on the processing

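Of the 55 called pairs, 15 kept their call under every setting and with every library left out, 40 lost it under some other setting and 29 when some library was left out. Depth and the number of mice limit the differences that can be found, most in the first experiment with 2 mice a group. In simulated data, 43.5% of genes changed by 1 on the log2 scale were recovered there at the threshold of 0.01. In the other experiments it was 76.5% to 88.5% at 0.05. Where a value came with a changed call the cause was not tested, except that the stricter or looser threshold acts by construction. Numbers of enzymes called are given against the main number in the order used in the report. They come without the shares of all genes under these settings, so they show only how the number of calls moved. At the other threshold (0.05 in the first experiment, 0.01 elsewhere), 8 were called in place of 3 between ZT10 and ZT14-unfed, 2 in place of 1 after the meal in the first experiment, 0 in place of 1 after it in vehicle-injected mice, 2 in place of 6 with dex, 0 in place of 1 with S961, 4 in place of 8 for dex against S961, 6 in place of 12 in L-GRKO, 2 in place of 5 in L-IRSdKO, 1 in place of 5 after the meal in lean mice and 2 in place of 6 in obese unfed mice. Without the filter on low values, the numbers were 0, 0, 0, 2 and 0 for the first 5 of these comparisons, 3 in L-GRKO, 2 in L-IRSdKO, 1 after the meal in lean mice, 2 in obese unfed mice and 0 for the interaction of diet and meal. With a filter at 2 RPKM they were 6 between ZT10 and ZT14-unfed, 2 after the meal in the first experiment, 2 in vehicle-injected and 1 in obese mice. Quantile normalization gave 1, 0, 11 and 1 for ZT10 to ZT14-unfed, the meal in the first experiment, L-IRSdKO and the meal in obese mice. All RefSeq IDs gave 6 from ZT10 to ZT14-unfed, and no variance trend gave 1 there and 0 after the meal. Median-ratio scaling gave 2 for the meal in vehicle-injected and 1 in obese mice, and a term for the library series 3 for the meal and 3 for S961. With only the compared groups fitted, the numbers were 2 for the meal in vehicle-injected mice, 1 with dex, 0 with S961, 5 for dex against S961, 1 in obese unfed and 4 in obese fed mice. Pseudocounts of 0.1 and 1 cost 1 pair each. The replicate numbers were not treated as pairs in the main fits. Over all tested genes, the deviations of same-numbered mice correlated between -0.20 and 0.32, except for replicate 4 of the injected mice (0.44 to 0.61). Such correlations cannot exclude an effect on single genes. In the diet experiment, replicate 1 was the highest mouse of every group for Sds and Sdsl but not for Tat, and the cause was not tested. A replicate block gave 0 between ZT10 and ZT14-unfed, 0 after the meal in the first experiment, 3 after the meal in vehicle-injected mice and 3 with S961, and within 1.5 times the main number elsewhere. With single libraries left out, the numbers ran from 0 to 2 between ZT10 and ZT14-unfed, 0 to 1 after the meal in the first experiment, 0 to 2 in vehicle-injected mice, 2 to 9 with dex, 0 to 2 with S961, 5 to 6 with dex plus S961, 5 to 9 for dex against S961, 0 to 0 for dex by S961, 8 to 12 in L-GRKO, 3 to 10 in L-IRSdKO, 1 to 5 after the meal in lean and 0 to 1 in obese mice, 2 to 9 in obese unfed, 0 to 3 in obese fed mice, and 1 to 1 for diet by meal. The number was 5 for dex against S961 without fed dex replicate 1 or S961 replicate 3, and 3 in obese fed mice without obese unfed replicate 1.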
